A study of Mus musculus with 10 samples.

Results

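Potassium channels are membrane proteins that let potassium ions pass through a selective pore, and in mouse most of their genes carry symbols that start with Kcn. Their expression was compared between the samples of mice with and without a running wheel for all 90 Kcn genes that the platform annotation assigns to a probe set with a single symbol, out of 29766 genes measured in the same way. Each member had 1 probe set, and the antisense RNA Kcnq1ot1 was left out. By channel class the members were 36 voltage-gated, 15 inward rectifier, 14 two-pore and 8 calcium-activated pore genes (with the sodium-activated Kcnt genes and Kcnu1, which belong to the same family) and 17 auxiliary genes, whose proteins do not form a pore but attach to one or regulate it. The samples were of CBA/CaJ mice, 6 months old, with normal hearing, and were labelled cochlea, the organ of hearing. Every mouse was housed alone. For 5 samples the cage held a wheel to run in (runners) and for 5 it held none (controls), and the series addresses long-term voluntary running and the hearing loss that comes with age. Each sample was put on 1 microarray, and all levels are the authors' log2 values.

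Hearing depends on potassium more than most senses do. Cells of the stria vascularis, a tissue on the side wall of the cochlea, pump potassium into the endolymph, the fluid above the hair cells. Sound opens channels in the hair bundle, potassium enters, and basolateral potassium channels of hair cells and the cells around them carry it away again. Voltage-gated channels shape the firing of the auditory nerve, inward rectifiers and two-pore channels set resting potentials, and calcium-activated channels shape hair cell responses and their control by efferent nerve fibres.

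RNA was taken from powdered inner ear tissue, and markers of other tissues were bright in it. The median log2 level of all genes lay between 5.35 and 5.43 per array, whereas Gabra6 of cerebellar granule cells lay at 10.34 to 11.13, the heme synthesis gene Alas2 of erythroid cells at 9.37 to 9.98 and the muscle myosin gene Myh4 at 8.82 to 9.71. The 10 hair cell markers had a mean of 4.80 to 5.21, which cannot be ranked against the others, since levels of different probe sets are not comparable. The tissue a channel's RNA came from was not resolved, and in such bulk samples fewer cells of a type and less RNA per cell cannot be told apart. Whether each array holds a separate animal is not stated in the labels, and the p-values therefore speak only of how far these arrays varied, possibly for technical reasons. Pearson correlations over all genes were 0.995 to 0.997 within controls and 0.991 to 0.997 within runners, and no pair of arrays held identical values.

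No Kcn gene passed the test between runners and controls. The smallest adjusted p among the 90 members was 0.510 (limma, Benjamini-Hochberg over 29766 genes), and the threshold of 0.05 was passed by 0.00672% of all genes. At an unadjusted p under 0.05 stood 13 members, or 14.4%, beside 7.13% of all genes. Of these, 6 were higher in runners (3.21% of all genes were) and 7 were lower (3.92% of all genes). With each array centred on its median the split was 9 higher and 5 lower, and with a further quantile normalization 9 higher and 7 lower. The share over all genes was not counted in those fits. Each difference is the mean of runners minus that of controls (log2), with the standard error of the fit. Over all members 48 were higher and 42 lower, and the median difference was 0.011, beside 0.0009 for all genes. Leaving out 1 array moved the median of the members between -0.0116 and 0.0329. The median size of a difference, whatever its sign, was 0.087 in the members and 0.060 in all genes, with median standard errors of 0.085 and 0.075. For 79 of the 90 members the 95% interval of the difference lay inside ±0.5 log2, beside 28595 of all 29766 genes, a larger share.

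The 13 genes were spread over 4 of the 5 classes. Voltage-gated Kcns1 and Kcna3 were lower and Kcng4 and Kcnc4 higher. Among inward rectifiers Kcnj13 and Kcnj2 were lower and Kcnj3 higher. Calcium-activated Kcnn4 was lower and Kcnn2 and Kcnn3 were higher, and of the auxiliary genes Kcne1 and Kcne3 were lower and Kcnab3 higher. No two-pore gene was among them. Median differences by class were -0.0071 for voltage-gated, 0.024 for inward rectifier, 0.044 for two-pore, 0.076 for calcium-activated and -0.0014 for auxiliary genes with all arrays. The voltage-gated and auxiliary medians turned sign with each array centred on its median (0.016 and 0.022), and when 1 array was left out all but the calcium-activated median took both signs.

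**Figure D1:**
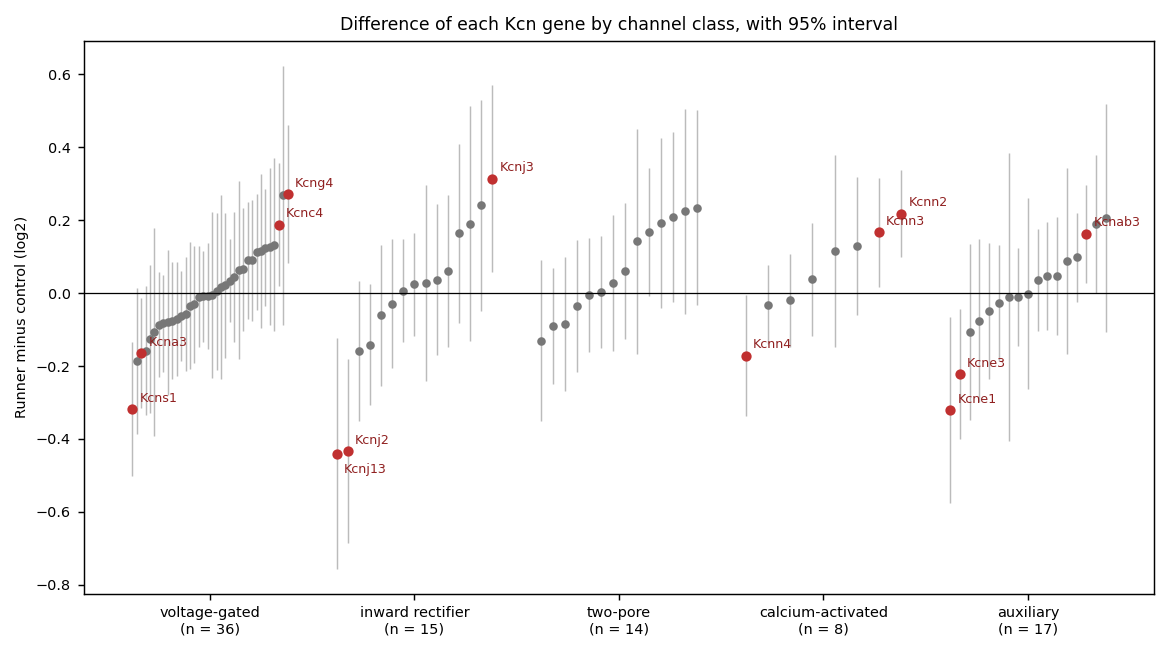
Difference between runners and controls (log2, y axis) of each of the 90 Kcn genes, by channel class (x axis), in order of size within a class; lines are 95% intervals and red points are the 13 genes at an unadjusted p under 0.05. Kcnj13 and Kcnj2 lie lowest at -0.44 and -0.43, and Kcnj3 highest at 0.31.

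The sequences before the start sites of 4 of these genes are shown because these genes had the largest differences among those of the 13 with an entry in the sequence table, 3 lower and 1 higher in runners. They are RefSeq sequences of build GRCm38.p6, the 250 bases before an annotated start, written 5′ to 3′ on the strand of the gene. Kcnj13 is at chr1:87394730-87394979 (minus strand), Kcnj2 at chr11:111065914-111066163 (plus), Kcns1 at chr2:164171114-164171363 (minus) and Kcnj3 at chr2:55435720-55435969 (plus). Capitals mark matches, on either strand, to 5 short motifs: the TATA box TATAAA, the GC box GGGCGG, the estrogen-related receptor site AAGGTCA, the cyclic AMP response element core TGACGT and the E-box CACGTG.
Kcnj13: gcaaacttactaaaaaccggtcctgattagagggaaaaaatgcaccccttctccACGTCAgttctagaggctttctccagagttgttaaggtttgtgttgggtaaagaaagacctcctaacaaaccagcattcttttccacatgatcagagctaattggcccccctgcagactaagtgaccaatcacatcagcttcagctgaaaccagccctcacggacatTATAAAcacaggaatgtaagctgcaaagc
Kcnj2: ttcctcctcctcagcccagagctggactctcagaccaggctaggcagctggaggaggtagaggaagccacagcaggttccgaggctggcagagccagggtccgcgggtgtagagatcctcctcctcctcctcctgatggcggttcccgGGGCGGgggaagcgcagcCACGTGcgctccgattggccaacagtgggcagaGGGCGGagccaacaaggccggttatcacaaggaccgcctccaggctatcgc
Kcns1: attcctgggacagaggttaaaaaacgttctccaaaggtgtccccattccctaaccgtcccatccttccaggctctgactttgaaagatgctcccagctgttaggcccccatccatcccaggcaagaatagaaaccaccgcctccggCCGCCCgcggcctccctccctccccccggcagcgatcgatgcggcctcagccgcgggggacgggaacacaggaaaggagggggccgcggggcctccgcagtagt
Kcnj3: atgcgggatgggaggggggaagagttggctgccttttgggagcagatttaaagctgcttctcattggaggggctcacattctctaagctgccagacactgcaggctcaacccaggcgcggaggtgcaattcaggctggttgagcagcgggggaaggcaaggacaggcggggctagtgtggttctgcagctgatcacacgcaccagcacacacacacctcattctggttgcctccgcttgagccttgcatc
The Kcnj13 sequence holds a TATA box that begins at position -29 from the start and a cyclic AMP response element core. That of Kcnj2 holds 2 GC boxes and an E-box, that of Kcns1 holds 1 GC box on the opposite strand, and that of Kcnj3 holds none of the 5 motifs. Over the 94 windows found for 69 of the members, a TATA box stood in 3.19%, against 12.4% of all 32851 windows, and all 3 windows belonged to inward rectifiers (Kcnj9, Kcnj13 and Kcnj16). A GC box stood in 44.7% of Kcn windows and 32.7% of all windows. The E-box was at 6.38% and 6.02%, the estrogen-related receptor site at 3.19% and 4.08% and the cyclic AMP response element core at 4.26% and 6.47%. Several windows can belong to 1 gene. The median GC content was 58.6% in Kcn windows and 52.4% in all windows, and it was 62.6% in the voltage-gated class. A match is a match of letters, not a measured binding site.

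The 2 subunits of the endolymph channel were both lower in runners, without passing the test. Kcne1 and Kcnq1 encode the auxiliary and the pore subunit of the channel through which strial marginal cells release potassium into the endolymph. Kcne1 stood at 6.14, 6.30, 6.00, 6.21 and 6.19 in controls 1 to 5 and at 6.09, 6.19, 5.51, 5.73 and 5.71 in runners 1 to 5. Runners 3, 4 and 5 lay below every control, and runners 1 and 2 lay within the range of the controls. The difference was -0.32 ± 0.12 (SE; 95% interval -0.58 to -0.07; unadjusted p = 0.0179, limma adjusted p = 0.607), a 1.25-fold lower level. Kcnq1 stood at 5.34, 5.41, 5.24, 5.29 and 5.35 in controls and at 5.39, 5.31, 4.98, 5.01 and 5.16 in runners. The same 3 runners lay below all controls, but the difference of -0.16 ± 0.081 (SE; limma adjusted p = 0.718) had an interval that reached 0.018.

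Kcnj10 encodes the inward rectifier of strial intermediate cells that gives rise to the endocochlear potential, and it is also a channel of glia. It stood at 8.14, 8.19, 7.95, 8.14 and 8.25 in controls and at 8.22, 8.13, 8.02, 8.16 and 8.18 in runners. The groups lay over each other, with a difference of 0.01 ± 0.065 (SE) and a 95% interval of -0.13 to 0.15. The sign of this difference turned without runner 1 and with array weights, at -0.012 and -0.027. It also turned without control 3 (-0.039), without runner 5 (-0.0026) and without runner 1 and control 1 together (-0.011). Kcnj16, whose protein pairs with that of Kcnj10 and is found in fibrocytes of the spiral ligament, had 5.48 to 5.78 in controls and 5.35 to 5.71 in runners. Runners 2 to 5 lay below every control and runner 1 within their range (-0.14 ± 0.077 SE; limma adjusted p = 0.729). Marker lists of the cells that hold these channels are given beside them. The 7 measured markers of strial marginal cells had 3 higher and 4 lower members, with list means of 6.50 to 6.61 in controls and 6.43 to 6.62 in runners. Of 7 melanocyte markers, which mark strial intermediate cells, 6 were lower and 3 of them at an unadjusted p under 0.05 (list means 5.78 to 5.88 and 5.40 to 5.95), and of 7 spiral ligament markers all 7 were lower and 4 at an unadjusted p under 0.05 (8.32 to 8.53 and 7.82 to 8.60). Over all genes 3.92% were lower at that p. The part of these cells in the channel results was not tested.

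Inward rectifiers held the largest differences of the family in either direction. Kcnj2, a channel that stabilises the resting potential of muscle, vascular and other cells, stood at 5.21, 5.44, 5.15, 5.73 and 5.40 in controls and 5.24, 4.84, 5.07, 4.85 and 4.77 in runners. Runners 2 to 5 lay below every control, and runner 1 lay within the control range. Its difference was -0.43 ± 0.12 (SE; interval -0.69 to -0.18; unadjusted p = 0.00272, limma adjusted p = 0.536), or 1.35-fold lower.

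Kcnj13 encodes a rectifier of transporting epithelia such as the choroid plexus, the tissue that makes cerebrospinal fluid. Its levels were 7.13, 7.08, 6.92, 7.36 and 7.81 in controls 1 to 5 and 6.97, 6.82, 6.64, 7.02 and 6.66 in runners 1 to 5. Control 5 stood far above the other controls, and runners 1 and 4 overlapped with the low controls. The difference was -0.44 ± 0.14 (SE; unadjusted p = 0.0101, limma adjusted p = 0.604), and it was -0.30 without control 5. Control 5 was also the highest array in the choroid plexus markers, a list drawn up after these values were seen, which holds the Kcn member Kcne2. The mean of its 7 genes was 5.60, 5.35, 5.50, 5.13 and 6.05 in controls and 5.36, 5.52, 5.28, 5.42 and 5.24 in runners. Of the 7 genes 5 were lower and 1 of them, Kl, at an unadjusted p under 0.05, beside 3.92% of all genes. The transthyretin gene Ttr, a main product of that tissue, ranged from 5.51 to 9.22 in controls and from 5.72 to 7.43 in runners. The part of choroid plexus in the Kcnj13 values was not tested.

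Of the 4 rectifiers opened by G proteins, which neurons and heart cells use for slow inhibition, 3 were higher in runners and 1 lower. Kcnj3, a subunit shared by many of these channels, stood at 7.88, 7.51, 7.73, 7.74 and 7.74 in controls and 7.59, 8.07, 8.22, 8.32 and 7.97 in runners. Runners 2 to 5 lay above every control and runner 1 below 4 of the 5 controls. The difference was 0.31 ± 0.12 (SE; unadjusted p = 0.0208, limma adjusted p = 0.619). Its partners Kcnj6 and Kcnj9, both neuronal, differed by 0.24 ± 0.13 and 0.19 ± 0.15 (SE), and in each of them runner 1 was the lowest of the 10 arrays. Kcnj5, the partner known from the heart and named here after its values were seen, differed by -0.16 ± 0.089 (SE). Kcnj8 and Kcnj11, the pores of channels closed by ATP, differed by -0.06 ± 0.089 and 0.06 ± 0.097, less than their spread. Kcnj12, close to Kcnj2 in function, went the other way at 0.16 ± 0.11 (SE; limma adjusted p = 0.783).

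Voltage-gated genes made up the largest class, with 17 higher and 19 lower. Kcns1, a subunit that forms no channel alone but modifies others in sensory neurons, stood at 5.99, 6.09, 5.79, 5.87 and 5.99 in controls and 5.88, 5.54, 5.45, 5.57 and 5.68 in runners. Runners 2 to 5 lay below every control, and runner 1 stood at the level of the lower controls. The difference of -0.32 ± 0.085 (SE; interval -0.50 to -0.14; unadjusted p = 0.00249, limma adjusted p = 0.536) was the most negative of the class. Kcng4, another modifier subunit, stood at 6.29, 6.28, 6.13, 6.18 and 6.24 in controls and 6.25, 6.79, 6.47, 6.54 and 6.41 in runners. Again 4 runners lay outside the control range, here above it, and runner 1 within it (0.27 ± 0.087 SE; unadjusted p = 0.00871, limma adjusted p = 0.592).

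Kcnc4, a gene of fast channels in muscle and nerve, stood at 7.76, 7.47, 7.48, 7.45 and 7.57 in controls and 7.52, 7.82, 7.72, 7.76 and 7.83 in runners. Control 1 lay among the runners and runner 1 among the controls (0.19 ± 0.077 SE; limma adjusted p = 0.652). Kcna3, the voltage-gated channel of lymphocytes, stood at 6.72, 7.01, 6.71, 6.85 and 6.79 in controls and 6.68, 6.69, 6.52, 6.76 and 6.62 in runners. Every runner but runner 4 lay below all controls, and the gap to the lowest control was narrow (-0.16 ± 0.070 SE; limma adjusted p = 0.671).

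Kcnd2, which carries the A-type current of cerebellar granule cells and other neurons, had 9.29 to 9.66 in controls and 9.05 to 10.19 in runners. Runner 1 was its lowest array and runner 4 its highest (0.27 ± 0.16 SE; limma adjusted p = 0.760). Its relative Kcnd3 showed the same placing of runner 1 (0.12 ± 0.097 SE). The axonal channel genes Kcna1 and Kcna2, whose channels lie near the nodes of myelinated nerve fibres, differed by 0.12 ± 0.074 and -0.01 ± 0.10 (SE). Kcnc1, a gene of fast-firing neurons, differed by 0.06 ± 0.11, and Kcnh1 by 0.13 ± 0.099. Differences short of an unadjusted p of 0.05 were measured for Kcna10 of hair cells (-0.08 ± 0.061), Kcnh2 (-0.01 ± 0.068), Kcnq5 (-0.07 ± 0.072), Kcna5 (-0.08 ± 0.092) and Kcna6 (0.13 ± 0.11). Kcna7, a channel of skeletal muscle, differed by -0.19 ± 0.092 (SE; limma adjusted p = 0.705), with runners 1 to 4 below every control and runner 5 above every control.

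Calcium-activated channels gave the only member whose groups did not overlap. Kcnn2 encodes the channel through which efferent nerve fibres dampen outer hair cells, and it is also a channel of brain neurons. Its levels were 6.16, 6.10, 6.26, 6.22 and 6.09 in controls 1 to 5 and 6.31, 6.36, 6.47, 6.39 and 6.38 in runners 1 to 5. All 5 runners lay above all 5 controls. The difference was 0.22 ± 0.055 (SE; interval 0.10 to 0.34), or 1.16-fold, with the smallest p of all members (unadjusted p = 0.00179, limma adjusted p = 0.510). Groups did not overlap in either direction for 0.927% of all genes. They did so in this direction for 0.38% of all genes and for 1 of the 90 members, and in the opposite direction for 0.548% of all genes and for no member. It kept its direction in all 19 alternatives, between 0.20 and 0.25.

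Kcnn3, a related channel of neurons and blood vessels, stood at 5.03, 4.93, 4.98, 4.96 and 4.98 in controls and 4.95, 5.26, 5.14, 5.29 and 5.06 in runners. Runners 2 to 5 lay above every control and runner 1 within the control range (0.17 ± 0.069 SE; limma adjusted p = 0.652). Kcnn4, the channel of red blood cells and immune cells, stood at 7.16, 7.37, 7.27, 7.24 and 7.27 in controls and 7.33, 7.10, 6.89, 7.03 and 7.10 in runners. Here runners 2 to 5 lay below every control, and runner 1 was second only to control 2 (-0.17 ± 0.077 SE; limma adjusted p = 0.686). Kcnma1, the large-conductance channel of inner hair cells, smooth muscle and neurons, differed by 0.13 ± 0.087 (SE), and the sodium-activated Kcnt1 by 0.11 ± 0.12. Both were lowest in runner 1.

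**Figure D2:**
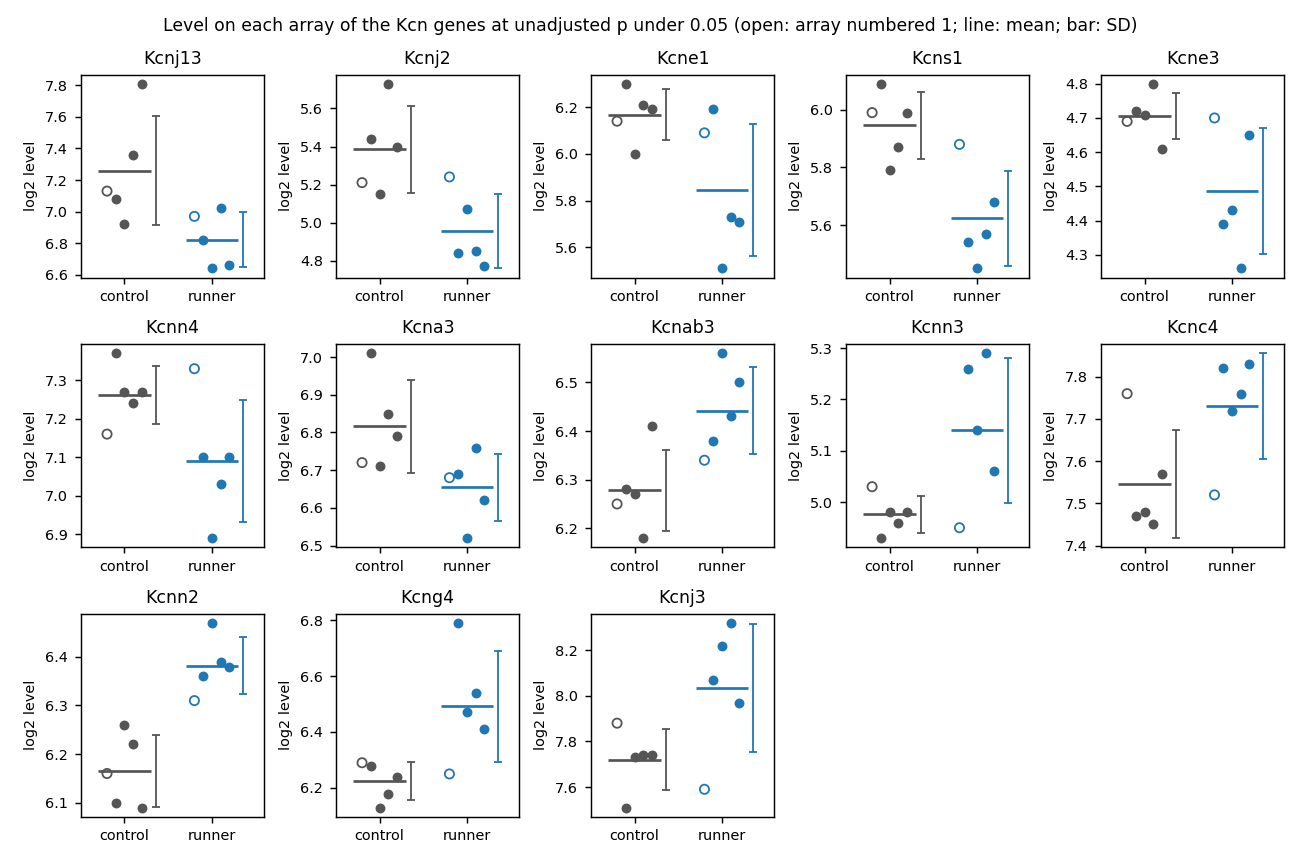
Log2 level (y axis) on each array of the 13 Kcn genes at an unadjusted p under 0.05, for controls (grey) and runners (blue); the horizontal line is the mean, the bar the SD (n = 5) and open points the arrays numbered 1. The groups are apart only in Kcnn2, and runner 1 lies within the control range in 11 of the other 12.

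Two-pore channels carry leak currents that hold cells near rest, and 9 of 14 were higher in runners, with none at an unadjusted p under 0.05. Kcnk10, opened by stretch and lipids, differed by 0.23 ± 0.12 (SE; limma adjusted p = 0.729), Kcnk12 by 0.21 ± 0.11 and the acid-sensitive Kcnk3 by 0.19 ± 0.11. In Kcnk10 and Kcnk3 runners 2 to 5 lay above every control and runner 1 below every control. Kcnk9, an acid-sensitive channel of cerebellar granule cells, had the same lowest array (0.14 ± 0.14 SE). Kcnk1 differed by 0.17 ± 0.081 (SE; limma adjusted p = 0.704), with runners 3, 4 and 5 above every control. In the opposite direction stood Kcnk5, a channel described in outer sulcus cells of the cochlea, at -0.13 ± 0.10, and Kcnk6 at -0.09 ± 0.085 (SE), neither at an unadjusted p under 0.05.

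Auxiliary genes were higher in 8 of 17 and lower in 9. Kcne3, a small subunit of several pores, stood at 4.69, 4.72, 4.71, 4.80 and 4.61 in controls and 4.70, 4.39, 4.43, 4.26 and 4.65 in runners. Runners 2, 3 and 4 lay below every control (-0.22 ± 0.083 SE; limma adjusted p = 0.611). Kcnab3, a beta subunit of voltage-gated channels, stood at 6.25, 6.28, 6.27, 6.18 and 6.41 in controls and 6.34, 6.38, 6.56, 6.43 and 6.50 in runners. Runners 3, 4 and 5 lay above every control, and control 5 stood above the other runners (0.16 ± 0.062 SE; limma adjusted p = 0.619). Kcnip4, which binds the channels made from Kcnd2, differed by 0.21 ± 0.14 (SE), with runner 1 lowest and runner 4 highest, as in Kcnd2 itself. Kcnip3 had the widest interval of the class (-0.41 to 0.38), with levels of 7.39 to 8.40 in runners. Kcnab2, Kcne1l and Kcnmb1 differed by -0.03 ± 0.073, -0.08 ± 0.10 and 0.05 ± 0.074 (SE), each smaller than its standard error.

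Runner 1 was the lowest of the 10 arrays for 22 of the 90 members, more than any other array, and the highest for 7. Such places were not counted over all genes. Array weights fitted over all genes were lowest for runner 1 (0.468) and next lowest for runner 2 (0.574). They reflect the scatter of an array and carry no direction. Whether the place of runner 1 is particular to the family was not tested. Control 4 was lowest for 18 members and runner 3 for 17, and runner 2 was highest for 17. In Kcnd2, Kcnd3, Kcnj12, Kcnk3 and Kcnk10 runner 1 lay below every control and runners 2 to 5 above every control, as the map of levels by array shows.

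**Figure D3:**
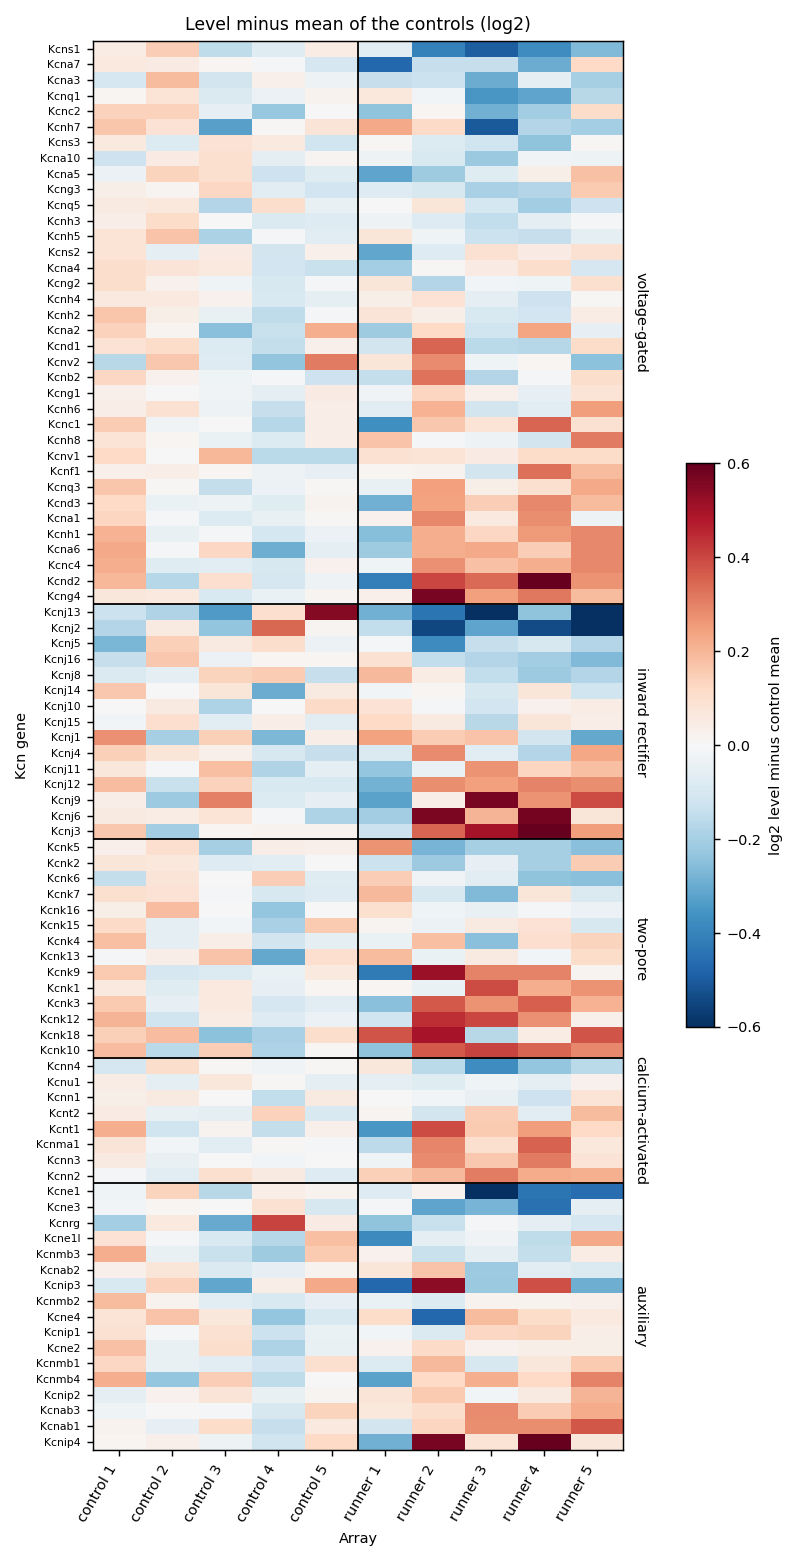
Log2 level minus the mean of the 5 controls (colour) for the 90 Kcn genes (rows, by class and difference) on each array (columns). Runner 1 is blue at Kcnd2, Kcnk9 and Kcnt1, where runners 2 to 4 are red, and nearly white or red at Kcne3 and Kcnk5, where runners 2 to 4 are blue.

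Leaving out runner 1 and control 1 together changed the count. In that fit 6 Kcn genes passed the limma test, beside 1.43% of all genes, 5 higher (134 of all genes, or 0.45%, were called higher) and 1 lower (0.981% of all genes). Kcnk3 differed by 0.34 ± 0.064 (adjusted p = 0.0383), Kcnj3 by 0.46 ± 0.088 (0.0388), Kcnc4 by 0.29 ± 0.058 (0.0422), Kcnk10 by 0.40 ± 0.080 (0.0433), Kcnd2 by 0.49 ± 0.10 (0.0470) and Kcnj2 by -0.55 ± 0.12 (0.0479). In all 5 higher genes control 1 was the highest control and runner 1 the lowest runner, and in Kcnj2 runner 1 was the highest runner. Leaving out such arrays widens a difference by construction, so these adjusted p-values are no separate evidence. No Kcn gene passed in any other of the 19 alternatives. At an unadjusted p under 0.05 stood 38 members in the fit without both arrays, or 42.2%, beside 15.5% of all genes. Without runner 1 alone no member passed, and 32 of 90 stood at an unadjusted p under 0.05 beside 14.5% of all genes. The smallest adjusted p of a member was then 0.0509 for Kcns1.

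**Figure D4:**
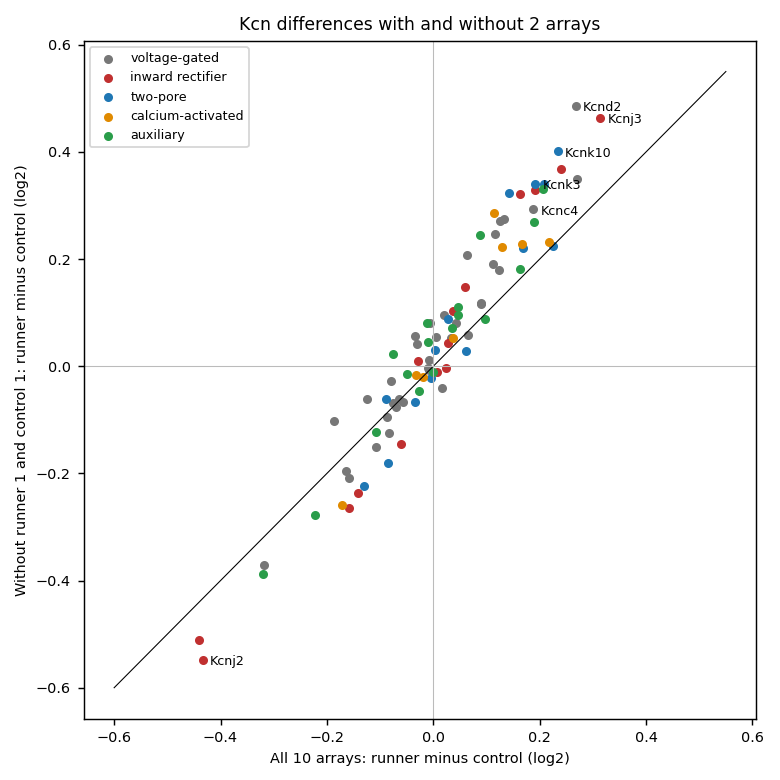
Difference of each Kcn gene with all 10 arrays (x axis, log2) and without runner 1 and control 1 (y axis, log2), coloured by class; the line marks equal values and names mark the 6 genes past an adjusted p of 0.05 without both arrays. Every member above 0.1 on the x axis lies on or over the line, as Kcnd2 does at 0.27 and 0.49.

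Members best known from other tissues were set beside markers of those tissues. The lists share members. Kcnd2, Kcnc1 and Kcnma1 below are also on the list with a described cochlear role, and Kcnma1 is on the vascular list as well. The 9 measured channels of cerebellar neurons (Kcnk9, Kcnd2, Kcnj6, Kcnj9, Kcnc1, Kcnip4, Kcna6, Kcnma1 and Kcnh1) were all higher, with a median difference of 0.14 and none at an unadjusted p under 0.05. Without runner 1 and control 1 the median was 0.32. Their mean was 7.19, 7.01, 7.12, 6.97 and 7.05 in controls and 6.77, 7.40, 7.29, 7.46 and 7.24 in runners, lowest in runner 1 and highest in runner 4. All 9 measured cerebellar markers outside the family were higher as well, none at an unadjusted p under 0.05, with a median of 0.13 that became 0.23 without runner 1 and control 1. Their mean was 9.15, 8.93, 9.13, 8.94 and 9.07 in controls and 8.79, 9.19, 9.39, 9.38 and 9.22 in runners, again with runner 1 lowest and with runners 3 and 4 highest. Markers of spiral ganglion neurons were higher in 8 of 10, with list means of 7.89 to 8.08 in controls and 7.87 to 8.22 in runners, and runner 1 was at 8.02. The dimmest cerebellar marker, Pcp2, had a mean of 7.11 in controls, but levels of different probe sets do not measure how much of a tissue was present. The part of any carried brain tissue in the neuronal channel values was not tested.

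All 5 channels of blood and immune cells had differences below 0, with a median of -0.16 and none past the adjusted test. Of these Kcnn4, Kcna3 and Kcne3, 3 of 5, stood at an unadjusted p under 0.05, whereas Kcnab2 and Kcnk6 did not. Over all genes 3.92% were lower at that p. The difference of Kcnab2 turned to 0.0211 without runner 3. The list mean was 6.32, 6.48, 6.35, 6.42 and 6.35 in controls and 6.41, 6.29, 6.13, 6.17 and 6.23 in runners, where runner 1 stood above 3 of the controls. All 7 B lineage markers were lower, each of them at an unadjusted p under 0.05, with list means of 6.50 to 6.92 in controls and 5.95 to 6.44 in runners. The 5 erythroid markers were all lower, 2 of them at that p (8.17 to 8.56 and 7.98 to 8.45). The 8 neutrophil markers were all lower, 2 of them at that p (8.29 to 8.72 and 8.21 to 8.69), and so were the 7 macrophage markers, 4 of them at that p (7.08 to 7.27 and 6.83 to 7.26). The part of these cells in the channel values was not tested.

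**Figure D5:**
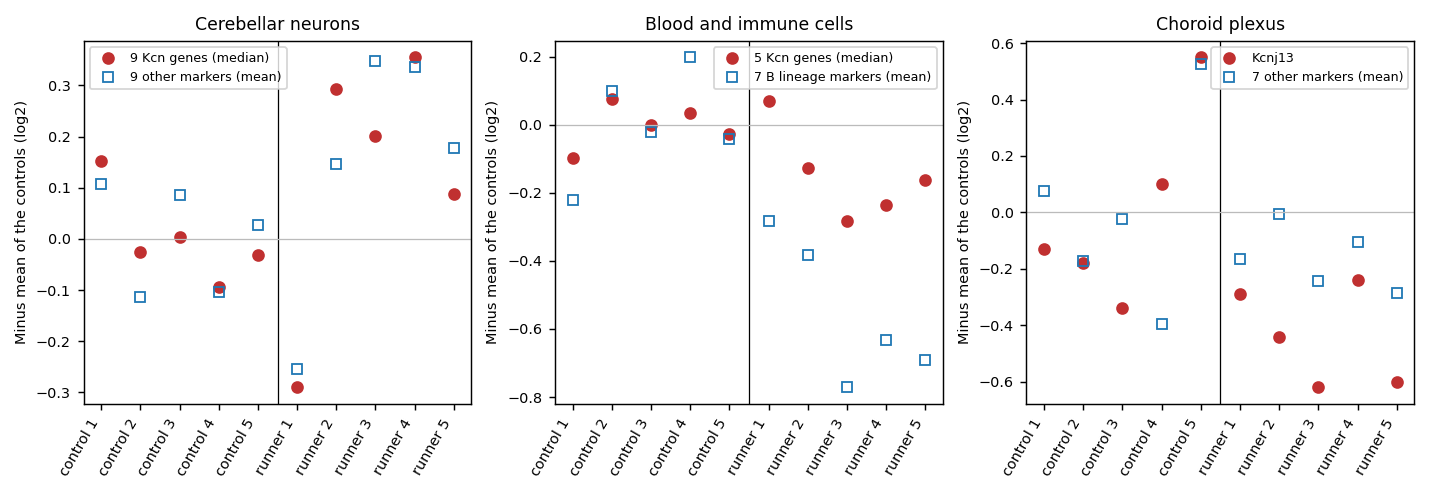
Array by array, log2 level minus the mean of the controls for Kcn genes (red circles, median over the genes) and markers of a tissue (blue squares, mean over the genes): 9 cerebellar channels and 9 cerebellar markers, 5 blood cell channels and 7 B lineage markers, and Kcnj13 with 7 choroid plexus markers. Runner 1 is lowest in both cerebellar sets, and control 5 is highest in Kcnj13 and in the choroid plexus markers.

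All 10 hair cell markers were lower, and for 3 the unadjusted p was under 0.05, with list means of 5.05 to 5.21 in controls and 4.80 to 5.18 in runners. Over all genes 3.92% were lower and 3.21% higher at that p. The part of hair cells in the values of hair cell channels was not tested. Over the 19 measured members with a described cochlear role, 10 were higher and 9 lower. The median was 0.0067 (0.081 without runner 1 and control 1), with Kcnn2 higher and Kcne1 and Kcnj2 lower at an unadjusted p under 0.05.

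Partners of the channels outside the Kcn names gave no called gene. Of 12 other subunits and relatives, such as the Dpp proteins that join channels of the Kcnd genes and the Hcn pacemaker channels, 6 were higher and 6 lower, none at an unadjusted p under 0.05. Dpp6 differed by 0.20 ± 0.10 (SE) and Hcn2, the brightest of this list, by -0.01 ± 0.076. Without runner 1 and control 1, Dpp6 passed (difference 0.33 ± 0.069, limma adjusted p = 0.0482), where 0.45% of all genes were called higher. In Dpp6 control 1 was the highest control (7.86) and runner 1 the lowest runner (7.55). Leaving them out widens the difference by construction, so this adjusted p is no separate evidence. Of 11 measured genes of cochlear potassium and chloride transport 8 were lower, 2 of them at an unadjusted p under 0.05 and none after adjustment. Over all genes 3.92% were lower at that unadjusted p. Cldn11, which seals the strial basal cell layer, differed by -0.25 ± 0.064 (SE; limma adjusted p = 0.510). Its groups did not overlap, though runner 1 as the highest runner (8.96) came close to control 3 as the lowest control (8.97). Runners were lower without overlap for 0.548% of all genes. The part of tissues other than the stria in the Cldn11 values was not tested. The potassium chloride cotransporter gene Slc12a7 differed by -0.24 ± 0.092 (SE; limma adjusted p = 0.618). Slc12a2, the cotransporter that loads strial marginal cells with potassium, differed by -0.21 ± 0.099 (SE; limma adjusted p = 0.698), and Atp1b1, a sodium pump subunit and the brightest of the list, by 0.06 ± 0.056.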

How the data were processed

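Each of the 10 samples was read on 1 array after labelling of total RNA with an Affymetrix whole-transcript kit (per the labels). The deposited log2 values were made by the authors, and the submitters' processing notes name RMA, which corrects background and sets arrays to a common scale, and Partek. For the chip, build and filters, details were not given in the sources used here. Of 39295 probe sets, 30130 had 1 gene symbol in GEO's platform annotation, 2146 several and 7019 none, and 827 old symbols were updated. The probe set of highest mean was kept per gene, leaving 29766 genes. Runners and controls were compared by limma's moderated test without covariates (limma 3.58.1, R 4.3.3), adjusted over all genes by the Benjamini-Hochberg method, after the code was tested on simulated data. Python 3.11.15 and matplotlib 3.10.9 made the figures. Signal over background per probe is not in these values, and the number of arrays limits the precision.

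The members and lists were chosen with earlier results of these data known. Genes named are those at an unadjusted p under 0.05, the 3 brightest and that of smallest p in each class, the largest differences in either direction in each class, and members of the lists by tissue; partner genes are those at an unadjusted p under 0.05 and the brightest of a list (Slc12a2 as the brightest marginal cell marker), with Dpp6 named after its values were seen. Probe sets with several symbols, 3 of them with a Kcn name, were left out.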

Additional observations from a re-analysis of the deposited data

Results flagged for a closer look

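Within a group of 5 arrays, 7 values stood apart from the other 4 arrays by more than 0.71 of the range of the group (Dixon's test). They came from 94 groups tested, and for 1 group taken alone chance gives about 1 in 20. These groups are genes on the same arrays, many of them named for their differences. They are not independent, so that rate does not show whether 7 is more than chance gives. In 6 of the 7 the array was runner 1. It was the lowest runner for Kcna6 at 5.36 (other runners 5.72 to 5.86), Kcnd3 at 6.53 (6.97 to 7.11), Kcnj12 at 5.73 (6.26 to 6.31), Kcnk10 at 6.90 (7.43 to 7.55) and Kcnk3 at 7.50 (7.96 to 8.12). It was the highest runner for Kcnk5 at 7.02, with the others at 6.47 to 6.55. In the controls, control 3 was lowest for Kcnk5 at 6.55, with the others at 6.78 to 6.85.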

How the results depend on the processing

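Over 19 alternatives, 882 of 918 fits of the 49 named genes kept direction and side of the threshold, 6 passed it newly and 30 turned sign, in 7 genes whose difference was at most 0.0753 in size. With array weights 15 genes passed, at an unadjusted p under 0.05 there were 15 higher Kcn genes and 10 lower ones, and Kcnj10 was -0.0267. The share of all genes at that p was counted only with all arrays (7.13%), without runner 1 (14.5%) and without runner 1 and control 1 (15.5%). Counts of Kcn genes in the other fits therefore have no such share beside them. Without genes of mean under 5 the calcium-activated median was 0.1224, and without genes under the median the auxiliary median was 0.0616. Without runner 1 and control 1 there were 6 Kcn genes and 426 genes past the threshold, 1 of them a partner gene. At an unadjusted p under 0.05, 12 Kcn genes were then lower and 26 higher, beside 2699 lower and 1907 higher of all 29766 genes. Medians were 0.0722 (auxiliary) and 0.1372 (calcium-activated). Kcna2 was then 0.0812, Kcne1l 0.0237, Kcnh2 0.0122, Kcnip3 0.0806 and Kcnj10 -0.0112. Median centring gave Kcna2 0.0174, Kcnh2 0.0153 and Kcnip3 0.012, and a further quantile normalization gave Kcnh2 0.0053. Leaving out 1 array gave 3 to 22 Kcn genes higher and 5 to 10 lower at an unadjusted p (3 without control 2, control 4 or runner 4, and 22 without runner 1), 2 to 99 genes past the threshold (99 without runner 1) and medians of 0.0555 to 0.1216 (calcium-activated), -0.0368 to 0.0232 (voltage-gated), -0.0118 to 0.0208 (inward rectifier), -0.008 to 0.0789 (two-pore) and -0.017 to 0.0502 (auxiliary). Over the same fits Kcna2 ran from -0.0687 to 0.0496, Kcnab2 from -0.0766 to 0.0211, Kcnc1 from -0.0102 to 0.1702, Kcne1l from -0.1518 to 0.0013, Kcnh2 from -0.0458 to 0.0338, Kcnip3 from -0.1498 to 0.1036 and Kcnj10 from -0.0392 to 0.0365. The cause was not tested. Arrays of equal number did not vary together (correlations of -0.25, 0.061, 0.277, 0.07 and -0.193, and only number 3 correlated best with its own), and a fit with the number as a replicate block gave 0 Kcn genes and 2 genes past the threshold, 7 Kcn genes higher and 7 lower, and changed no call.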

Other observations

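Kcn genes best known from skeletal muscle went both ways, 3 of 6 higher and 3 lower, with Kcnc4 higher and Kcnj2 and Kcne3 lower at an unadjusted p under 0.05. Over all genes 3.21% were higher and 3.92% lower at that p. Kcne3 is also among the blood and immune cell channels above. The mean level of the 6 genes was 5.77 to 5.87 in controls and 5.63 to 5.85 in runners, while 9 muscle markers had means of 7.97 to 8.71 and 7.96 to 8.91. Of the 4 channels best known from vascular smooth muscle and pericytes 2 were higher and 2 lower, none at an unadjusted p under 0.05. Their mean was 6.03 to 6.08 in controls and 5.97 to 6.14 in runners, lowest in runner 1.

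The antisense RNA Kcnq1ot1, which is transcribed across Kcnq1 and was left out of the family, stood at 5.65, 5.38, 5.33, 5.54 and 5.62 in controls 1 to 5 and at 5.33, 6.09, 5.38, 5.96 and 5.35 in runners 1 to 5. Runners 2 and 4 lay above every control, and the other 3 runners lay among the lowest arrays.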
